A study of Mus musculus with 6 samples.

Results

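The 9 genes described here, Papss2, Tmem215, Ppp1r1a, Prlr, Spock2, Gjd2, Fam151a, Prss53 and Cyp4f39, are listed as markers of mature β cells, the insulin-producing cells of the pancreatic islet. They were picked by name from a table of 54532 genes, and the choice was made with their lower values in the libraries labelled Wtap-βKO already known. Their differences between the groups are therefore given as a description, without a test. RNA was sequenced from pancreatic islets of mice aged 7 weeks, in 3 control samples of genotype Wtap flox/flox and 3 samples of genotype Wtap-βKO, each pooling the islets of 3 mice. The control genotype has Wtap flanked by recombination sites and left in place, and Wtap-βKO is a deletion of Wtap meant for β cells. The sources used here give neither the Cre driver, nor the sex of the mice, nor the deleted part of the gene.

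WTAP belongs to the nuclear methyltransferase complex that writes N6-methyladenosine into messenger RNA. A mature β cell couples glucose entry and metabolism to calcium-driven release of insulin, and it carries a set of enriched transcripts that appear as the cell matures after birth. The 9 genes come from different parts of that state. Papss2 makes the sulfate donor used by all sulfotransferases, and Cyp4f39 encodes a fatty acid hydroxylase. Ppp1r1a encodes an inhibitor of protein phosphatase 1 that acts once protein kinase A has phosphorylated it. Prlr is the receptor for prolactin and placental lactogen, which enlarge the β-cell mass in pregnancy. Gjd2 encodes the connexin that joins β cells electrically. Spock2 encodes a secreted proteoglycan of the SPARC family, Prss53 a trypsin-like serine protease, and Tmem215 and Fam151a encode membrane proteins whose roles in the islet are little known.

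The libraries held between 16353297 and 18682745 reads each, recovered from the deposited FPKM values (fragments scaled to gene length and library size). Wtap itself was not lower: it was at 10.5, 11.4 and 11.6 FPKM in the controls and at 11.2, 11.9 and 12.3 in the libraries labelled Wtap-βKO (log2 fold change 0.07 with SE 0.063 and adjusted p = 0.475 by limma). The value sums over all exons and all islet cells, so it may check nothing, and directions below are those of the libraries as labelled. Of 15927 genes tested by limma at an adjusted p under 0.05, 1397 were higher (8.77%) and 1798 lower (11.3%). The split depended on the scaling: leaving the 50 highest genes out of the scaling gave 1677 higher against 1440 lower, and scaling by the total of recovered reads gave 2336 against 1094. The hormone genes that define the islet were abundant, with the insulin genes Ins2 at 89397 ± 5888 FPKM and Ins1 at 42913 ± 4356 in the controls (SD, n = 3).

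The promoter windows shown are those in which a searched motif matched, and no β-cell factor motif was common to the members. The windows of Cyp4f39, Fam151a, Papss2 and Spock2 held no match, nor did the other start sites of Tmem215 and Prlr. Ppp1r1a had no matched RefSeq promoter. The Prlr window shown lies inside the span of the gene. The windows hold the 250 bases before the RefSeq start site (GRCm38.p6), 5′ to 3′ on the strand of the gene, with motif matches in capitals. Tmem215 (chr4:40471930-40472179, plus strand) holds one NEUROD-type E-box, and Prss53 (chr7:127890971-127891220, minus strand) one homeodomain core. Gjd2 (chr2:114013620-114013869, minus strand) holds one cAMP-response core, and the second of 3 Prlr start sites (chr15:10223656-10223905, plus strand) holds, in order, a cAMP-response core, a forkhead motif, an E-box and a STAT motif.
Tmem215: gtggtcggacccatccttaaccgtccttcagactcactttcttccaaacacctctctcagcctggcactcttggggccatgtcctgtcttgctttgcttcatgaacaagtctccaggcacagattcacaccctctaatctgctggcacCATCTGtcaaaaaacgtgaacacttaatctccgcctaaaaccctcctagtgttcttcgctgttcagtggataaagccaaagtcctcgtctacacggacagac
Prss53: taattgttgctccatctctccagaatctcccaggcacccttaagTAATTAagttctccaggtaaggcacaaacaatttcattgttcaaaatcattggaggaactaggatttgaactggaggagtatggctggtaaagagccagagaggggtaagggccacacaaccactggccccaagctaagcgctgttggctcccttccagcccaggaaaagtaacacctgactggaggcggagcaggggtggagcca
Gjd2: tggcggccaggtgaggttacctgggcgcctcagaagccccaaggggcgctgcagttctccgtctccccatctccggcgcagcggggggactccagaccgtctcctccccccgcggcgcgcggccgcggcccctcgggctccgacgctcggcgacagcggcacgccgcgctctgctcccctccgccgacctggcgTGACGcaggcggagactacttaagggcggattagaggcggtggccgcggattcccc
Prlr: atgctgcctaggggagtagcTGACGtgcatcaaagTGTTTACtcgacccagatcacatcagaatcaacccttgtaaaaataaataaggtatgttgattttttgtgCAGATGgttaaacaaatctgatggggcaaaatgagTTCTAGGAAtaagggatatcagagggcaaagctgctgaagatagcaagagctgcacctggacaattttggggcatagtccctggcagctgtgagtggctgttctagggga

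Motifs were searched on both strands. The core of MAF factors was taken as TGCTGAC and that of homeodomain factors as TAATTA. The E-box of the NEUROD type was spelled CAGATG and the forkhead motif TGTTTAC. For HNF1 the letters searched were GTTAAT, for the cAMP response TGACG, for STAT factors TTCNNNGAA, and for the TATA box TATAAA. RefSeq promoters matched 8 of the 9 members, with 12 start sites. The MAF, HNF1 and TATA letters were in none of the 12, where 3.8%, 6.4% and 12.4% of 32851 promoter windows of the same length hold them. The E-box was in promoters of 2 members (14.4% of all windows) and the cAMP-response core in those of 2 (17.8%). The homeodomain (4.8%), forkhead (3.2%) and STAT (7.0%) letters were each in 1 member. A match is a description of letters and not a bound site. The windows also ranged widely in base content, from 32.8% G and C at the third Prlr start site to 74.0% at Gjd2, beside a median of 52.4% over all windows.

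The differences of the 9 genes lay in 2 ranges. Cyp4f39, Fam151a, Prss53, Tmem215, Papss2 and Ppp1r1a, 6 of the 9, were at least 3-fold lower in the libraries labelled Wtap-βKO, where 1.51% of all tested genes were. Prlr, Spock2 and Gjd2 were lower by less than 1.5-fold (8.17% of tested genes were at least that much lower), so a label of strongly lowered holds for the first 6 and not for these 3. For 8 of the 9 every library labelled Wtap-βKO was under every control (22.1% of tested genes), and Gjd2 overlapped. All 9 passed the filter of a mean of 0.5 FPKM over the 6 libraries. Their summed level was between 819 and 908 FPKM in the controls and between 371 and 411 in the libraries labelled Wtap-βKO. In bulk islets, fewer β cells and less RNA per β cell cannot be told apart.

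**Figure D1:**
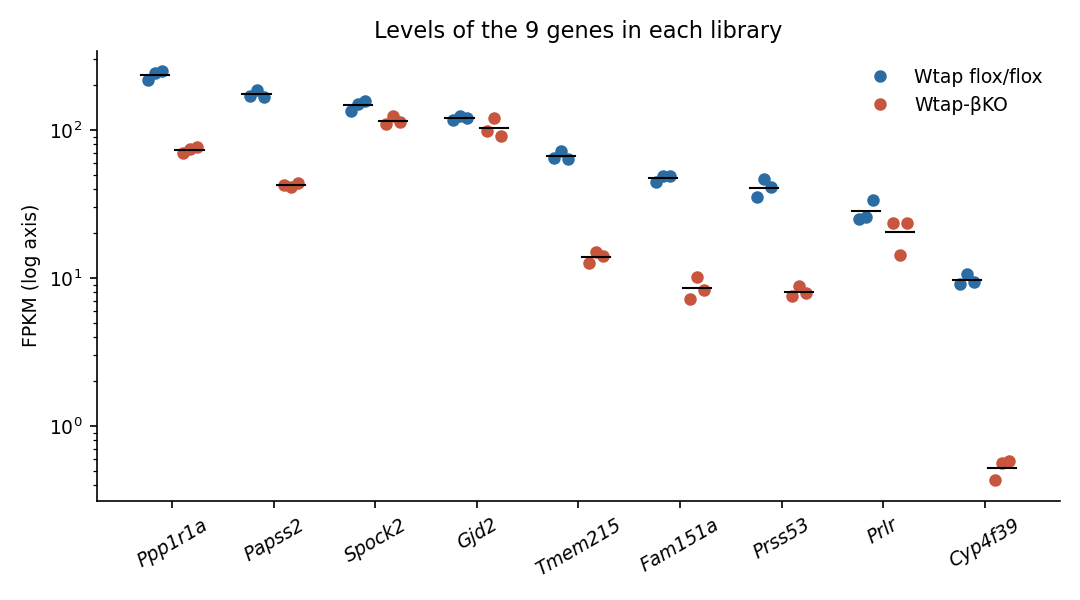
FPKM of each of the 9 genes (log axis) in the 3 control libraries (blue) and the 3 libraries labelled Wtap-βKO (red), with black lines at the group means. Genes are ordered by control level, and the groups stand clearly apart for Ppp1r1a, Papss2, Tmem215, Fam151a, Prss53 and Cyp4f39 while those of Gjd2 overlap.

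Among the enzymes, Cyp4f39 (chr17:32468462-32492479, plus strand) showed the largest fold. It was at 9.17, 10.6 and 9.35 FPKM in control replicates 1 to 3 and at 0.431, 0.559 and 0.580 in replicates 1 to 3 labelled Wtap-βKO. These rest on 257, 268 and 266 control reads and on 13, 16 and 16 reads, so the lower group is known only within a wide counting error. The group means were 9.71 ± 0.784 and 0.523 ± 0.0806 (SD, n = 3), an 18.6-fold difference in which the libraries of a group lay close together. Only 1 gene with a mean of at least 5 FPKM had a larger fold among those tested. Its log2 difference was -2.81 on the log2(FPKM + 1) scale, which understates low genes, and -3.98 with a pseudocount of 0.1.

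Papss2 (chr19:32620005-32667187, plus strand) was among the most abundant of the 9. Its level was 171, 187 and 167 FPKM in the controls and 42.5, 41.5 and 43.6 in the libraries labelled Wtap-βKO. The means of 175 ± 10.9 and 42.5 ± 1.08 differed 4.12-fold, and the coefficient of variation in the lower group was only 2.54%. By mean FPKM it stood at place 97 among protein-coding genes in the controls and at place 725 in the libraries labelled Wtap-βKO.

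Prss53 (chr7:127885841-127890970, minus strand) was at 35.1, 46.5 and 41.0 FPKM in the controls and at 7.51, 8.82 and 7.93 in the libraries labelled Wtap-βKO, 5.05-fold lower. Its controls spread more than those of the other 5 genes of the strongly lowered range (coefficient of variation 14.1%), yet the lowest control was 3.97 times the highest library labelled Wtap-βKO. The span of the gene, introns included, shares 156 bases with that of Zfp646, a zinc finger gene on the opposite strand. Zfp646 was at 7.42 ± 0.267 and 8.11 ± 0.342 FPKM (log2 fold change 0.11, adjusted p = 0.239 by limma, not past the threshold). The span of Prss53, introns included, also shares 4744 bases with that of the gene model Gm21974 on the same strand. Gm21974 was listed at 0 in 5 of the 6 libraries and at 0.140 in control replicate 1.

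Among the signalling genes, the phosphatase inhibitor gene Ppp1r1a (chr15:103530279-103538003, minus strand) had the highest control level of the 9. It was at 218, 242 and 250 FPKM in the controls and at 69.5, 74.5 and 76.5 in the libraries labelled Wtap-βKO. The means were 237 ± 16.6 and 73.5 ± 3.60, 3.22-fold apart, with wide separation between the groups. Its place among protein-coding genes went from 70 to 326.

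Prlr (chr15:10177238-10349180, plus strand) showed a small difference that turned on single libraries. It was at 25.2, 25.9 and 33.9 FPKM in the controls and at 23.4, 14.2 and 23.5 in the libraries labelled Wtap-βKO. The lowest control exceeded the highest library labelled Wtap-βKO by a factor of only 1.07, and replicate 2 of that group stood far under the others. The ratio of means was 1.39, against 1.21 without that replicate and 1.25 without control replicate 3.

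Gjd2 (chr2:114009601-114013619, minus strand), the connexin gene, differed least. Its level was 117, 124 and 121 FPKM in the controls and 98.7, 121 and 90.9 in the libraries labelled Wtap-βKO. Replicate 2 of the latter lay within the control range and the other pair below it, and the means of 121 ± 3.72 and 104 ± 15.8 differed 1.16-fold. One of the noncoding genes named A530058N18Rik overlaps the start of Gjd2 by 18 bases on the opposite strand. That gene fell 1.85-fold, from 7.45 ± 0.792 to 4.03 ± 0.162 FPKM (log2 fold change -0.75 with SE 0.084, adjusted p = 0.00210 by limma).

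Spock2 (chr10:60106219-60135198, plus strand), the proteoglycan gene, was at 135, 151 and 156 FPKM in the controls and at 109, 125 and 113 in the libraries labelled Wtap-βKO. The groups did not overlap, but the gap was narrow, 135 against 125, and the means of 147 ± 11.1 and 116 ± 8.12 differed 1.28-fold. Scaled to total recovered reads, its log2 difference went from -0.35 to -0.23.

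The membrane proteins of little-known role were both strongly lower. Tmem215 (chr4:40472180-40477168, plus strand) was at 64.3, 71.7 and 63.9 FPKM in the controls and at 12.7, 15.1 and 14.1 in the libraries labelled Wtap-βKO, 4.77-fold lower. Fam151a (chr4:106733889-106748292, plus strand) was at 44.8, 49.1 and 48.9 in the controls and at 7.25, 10.1 and 8.32 in the libraries labelled Wtap-βKO, 5.56-fold lower. Both showed wide gaps between the groups. The span of Fam151a, introns included, shares 3738 bases with that of Acot11, an acyl-CoA thioesterase gene on the opposite strand. How much of the shared stretch is exon was not measured. Acot11 fell 1.46-fold, from 7.64 ± 0.151 to 5.23 ± 0.207 FPKM (adjusted p = 0.00337 by limma). The protocol names no strand-marking step and the treatment of strand in counting is unknown, and reads of the shared stretches cannot be assigned with certainty.

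**Figure D2:**
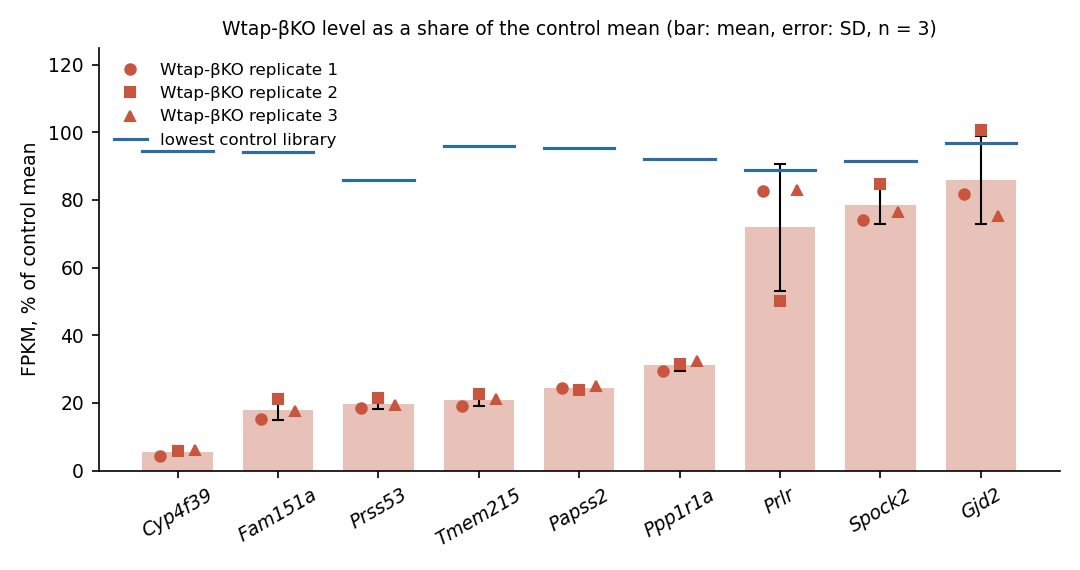
FPKM in the libraries labelled Wtap-βKO as a percent of the control mean of each gene, with bars for the mean, error bars for the SD (n = 3), a symbol for each replicate and a blue line at the lowest control. Cyp4f39 was at 5.39% of the control mean and Ppp1r1a at 31.1%, while Prlr, Spock2 and Gjd2 stood at 71.9%, 78.4% and 85.9%, with replicate 2 of Prlr lowest and replicate 2 of Gjd2 inside the control range.

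The order of the levels differed between the groups. FPKM is scaled to the deposited gene length, so the order between genes depends on the length used. That length was 15339 bases for Prlr and 1599 for Cyp4f39. Their longest coding transcripts in GENCODE M21 have 9900 and 2618 bases. The orders below hold for the deposited lengths only. In the controls the order was Ppp1r1a, Papss2, Spock2, Gjd2, Tmem215, Fam151a, Prss53, Prlr and Cyp4f39, and of the neighbours in it only Fam151a and Prss53 overlapped in their libraries. In the libraries labelled Wtap-βKO the order was Spock2, Gjd2, Ppp1r1a, Papss2, Prlr, Tmem215, Fam151a, Prss53 and Cyp4f39. There the libraries of Spock2 and Gjd2 overlapped, as did those of Prlr and Tmem215 and those of Fam151a and Prss53. Replicate 2 labelled Wtap-βKO was the highest of its group for 5 members, Fam151a, Prss53, Tmem215, Spock2 and Gjd2, and the lowest for Papss2 and Prlr.

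Companion genes, from the pathway or family of each member except Tmem215, were not used to choose the members, and they were tested. Tmem215 had no list of its own, and the list of Fam151a also held unrelated membrane protein genes. The lists were set with earlier results of these data known, so their counts are not those of an unselected set. Of 246 such companion genes 175 were tested, and 32 were higher (18.3%) and 22 lower (12.6%) by limma. Among all genes tested 8.77% were higher and 11.3% lower, so the share lower was near that of all genes. The median log2 fold change was 0.07 against -0.0054 for all genes tested. Without control replicate 2 the higher count was 20, and scaled to total recovered reads it was 51. By list, the share higher ran from 5.56% for that of Gjd2 to 46.7% for that of Spock2. The share lower ran from 0% for the list of Spock2 to 25.7% for that of Prlr. The median log2 fold change of the 9 members was -2.01. The companion Ust, described next, was 4.05-fold lower, a larger fold than that of Ppp1r1a, Prlr, Spock2 or Gjd2.

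**Figure D3:**
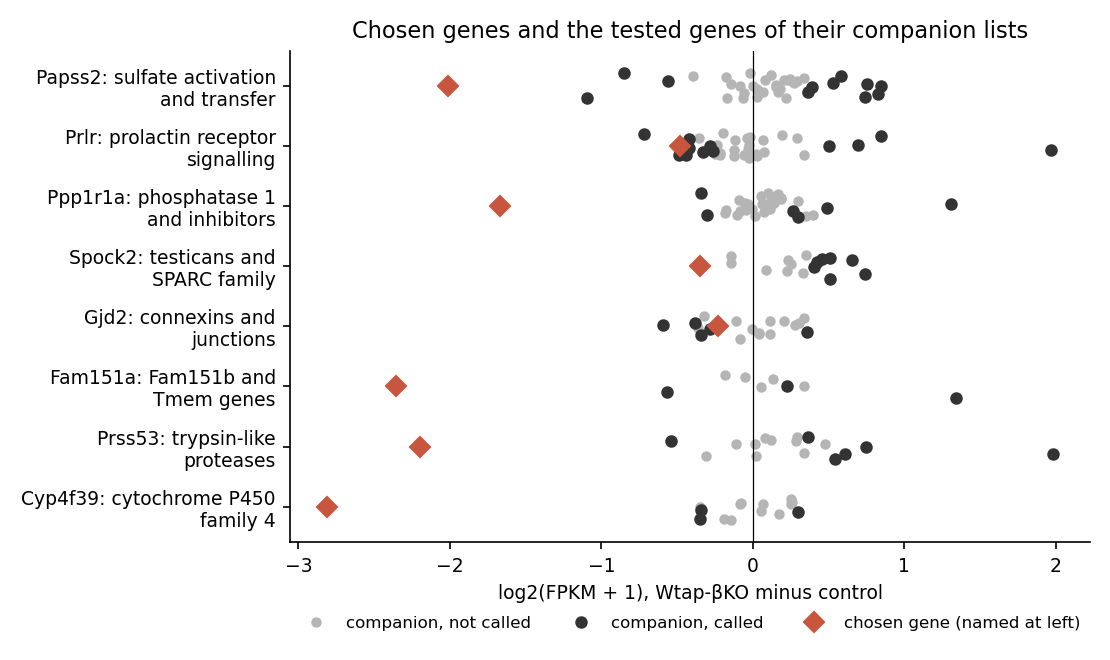
Difference in log2(FPKM + 1), libraries labelled Wtap-βKO minus controls, of each chosen gene with a companion list (red diamond) and of the tested genes of that list (black where called by limma, grey where not). Tmem215 had no list of its own and is not shown. Papss2, Ppp1r1a, Spock2, Fam151a, Prss53 and Cyp4f39 lie to the left of every tested companion in their lists, Spock2 by a small margin, while Prlr and Gjd2 lie within theirs.

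For Papss2, the list held genes of sulfate uptake, activation and transfer. The paralog Papss1, which makes the same sulfate donor, was at 45.2 ± 0.966 and 43.4 ± 4.08 FPKM (log2 fold change -0.06, adjusted p = 0.606 by limma, not past the threshold, and 0.05 in log2 when scaled by total reads). Papss2 was 3.87 times as high as Papss1 in the controls and about level with it in the libraries labelled Wtap-βKO, at 42.5 against 43.4. Of 38 genes tested 8 rose and 3 fell. The tyrosylprotein sulfotransferase gene Tpst1 rose from 13.0 ± 0.698 to 24.2 ± 0.794 FPKM (log2 fold change 0.85 with SE 0.060 and adjusted p = 0.000441 by limma). Slc35b3, a Golgi carrier of the sulfate donor, rose 1.61-fold and the chondroitin sulfotransferase gene Chst12 1.71-fold. Ust, a uronyl sulfotransferase, fell from 2.41 ± 0.236 to 0.595 ± 0.0844 FPKM. Scaled to total recovered reads 14 genes rose.

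For Prlr, the list held its relatives and the JAK and STAT steps below it. The growth hormone receptor gene Ghr, the closest relative in the list, was at 22.9 ± 2.23 and 20.9 ± 0.713 FPKM (adjusted p = 0.311 by limma). Of 35 genes tested 4 rose and 9 fell. Jak1, a receptor-bound kinase, fell 1.69-fold (adjusted p = 0.000929 by limma) and the adaptor gene Shc1 1.42-fold. Socs5, of the suppressors of cytokine signalling, rose 1.68-fold, and Tnfrsf11b, which encodes osteoprotegerin, rose from 1.55 ± 0.717 to 8.81 ± 1.33 FPKM. The kinase and the factors best known for signalling from this receptor were named for their role and with their values known. Jak2 was at 8.86 and 8.63 FPKM (adjusted p = 0.802), Stat5b fell from 22.9 ± 1.41 to 18.0 ± 1.14 (adjusted p = 0.0197), and Stat5a was at 2.93 and 2.08 (adjusted p = 0.0766), all by limma. The Stat5b call was lost when scaled by total reads and when control replicate 1 or 2, or replicate 1 or 3 labelled Wtap-βKO, was omitted (adjusted p up to 0.0774). Stat5a was called lower by voom, with the replicate number as a block and without replicate 2 labelled Wtap-βKO (adjusted p down to 0.0210). The higher count was 2 without control replicate 1 or 3, and scaling by total reads gave 6 in each direction.

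For Ppp1r1a, the list held protein phosphatase 1, its inhibitors and targeting subunits, and calcineurin. The paralog Ppp1r1b was nearly silent, at a mean of 0.0642 FPKM in the controls and 0.447 among the libraries labelled Wtap-βKO, and was under the filter. Of 31 genes tested 4 rose and 2 fell. Ppp1r3c, a glycogen-targeting subunit, rose from 2.57 ± 0.609 to 7.80 ± 1.16 FPKM (log2 fold change 1.31 with SE 0.14 and adjusted p = 0.00201 by limma) and Ppp1r3d, of the same kind, rose 1.54-fold. Ppp1r9b, a scaffold for the phosphatase, rose 1.21-fold, and this call was lost without control replicate 1 or 2 (adjusted p up to 0.0596). The calcineurin subunit gene Ppp3cb fell 1.29-fold. The higher count was 2 without control replicate 2, and the lower count was 1 whenever a library was omitted, except for replicate 2 labelled Wtap-βKO. Scaled by total reads, 7 rose and 1 fell.

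For Gjd2, 18 of 34 genes of connexins, pannexins and junctions were tested, and 1 rose and 4 fell. No other of 19 connexin genes was near its level, the next being Gja4 at a mean of 5.34 FPKM over the 6 libraries. Gja1 was at 1.24 ± 0.151 and 1.31 ± 0.312 FPKM (adjusted p = 0.864 by limma), and Gjc1 at 0.730 ± 0.117 and 0.871 ± 0.0999 (adjusted p = 0.536 by limma). The E-cadherin gene Cdh1 fell 1.22-fold (from 88.6 ± 0.926 to 72.8 ± 0.879 FPKM) and the claudin gene Cldn7 1.28-fold. Ocln, which encodes occludin, rose 1.37-fold, a call that did not survive omitting any single control, replicate 1 labelled Wtap-βKO or the filter on low values (adjusted p up to 0.0884), so that the higher count was 0 without any control. Scaled by total reads, 5 rose and 3 fell.

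For Spock2, 15 of 19 genes of testicans, the SPARC family and matrix proteases and their inhibitors were tested, and 7 rose. The lower count was 0 by limma, also 0 by voom and 0 when p under 0.05 was left unadjusted. The relatives were low, with Spock1 at 4.50 ± 0.547 and 3.95 ± 0.147 FPKM (adjusted p = 0.300 by limma) and Spock3 at 0.988 ± 0.144 and 1.54 ± 0.161 (adjusted p = 0.0623 by limma, but called higher by voom and when scaled to total recovered reads). Sparc rose 1.43-fold and Sparcl1 1.34-fold, which encode secreted calcium-binding matrix proteins, and the protease inhibitor gene Timp2 rose 1.75-fold and the membrane protease gene Mmp15 1.43-fold. The count of 7 was 4 without control replicate 1 and without replicate 1 or 3 labelled Wtap-βKO. Mesenchymal markers rose in the same libraries, with values given below, and their part in this list was not tested.

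For Prss53, 16 of 35 trypsin-like protease genes were tested, and 5 rose and 1 fell. Prss23, a secreted protease, rose from 1.37 ± 0.421 to 8.28 ± 0.676 FPKM (log2 fold change 1.98 with SE 0.14 and adjusted p = 0.000458 by limma). Htra1 and Prss8 rose 2.17-fold and 1.87-fold, and Prss8 lost its call without control replicate 2 (adjusted p = 0.0521). Tmprss4, a membrane serine protease gene, fell 1.51-fold. The higher count was 2 without control replicate 2 and 3 without control replicate 3 or replicate 1 labelled Wtap-βKO, and the lower count was 2 without replicate 2 of that group.

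For Fam151a, the paralog Fam151b was at 3.11 ± 0.185 and 2.61 ± 0.138 FPKM (adjusted p = 0.140 by limma, not past the threshold). The rest of that list were unrelated membrane protein genes, of which Cltrn, an amino acid transporter partner of β cells and kidney formerly named Tmem27, rose from 320 ± 17.8 to 811 ± 28.8 FPKM (log2 fold change 1.34 with SE 0.071 and adjusted p = 0.000159 by limma). With Tmem163 (1.51-fold lower) and Tmem176a (1.17-fold higher), 3 of the 8 genes tested passed, and the call of Tmem176a was lost without any single control and without replicate 2 or 3 labelled Wtap-βKO (adjusted p up to 0.119), which brings the higher count from 2 to 1. Cltrn was at 305, 315 and 340 in the controls and 788, 801 and 843 in the libraries labelled Wtap-βKO.

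For Cyp4f39, 14 of 30 genes of cytochrome P450 family 4 and its partners were tested, and 1 rose and 2 fell. The relatives Cyp4f13, Cyp4f16 and Cyp4f18 were not called (adjusted p = 0.429, 0.211 and 0.806 by limma), with means of 6.86 and 7.90, 4.86 and 6.03, and 0.687 and 0.789 FPKM. Cyp4f17 rose 1.26-fold, but only 5 of 14 alternatives kept that call and it was lost without any 1 of the 6 libraries. The fatty aldehyde dehydrogenase gene Aldh3a2 fell 1.29-fold. Cyp4v3, a fatty acid hydroxylase gene, fell 1.29-fold, and 8 of 14 alternatives ended this call (adjusted p up to 0.102), among them all that leave out 1 library other than replicate 2 labelled Wtap-βKO. The lower count was 4 without that replicate and 1 without any other single library. Genes of this family resemble one another, and how reads matching several copies were counted is unknown.

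Beside the 9 genes, 20 other β-cell markers were tested, a list set with earlier results of these data known. Of these 15 fell by limma, the higher count was 0 (voom also called 0, and 1 had an unadjusted p under 0.05), and the median log2 fold change was -1.03. Ins1 fell 2.57-fold, while Ins2 was at 89397 ± 5888 and 56847 ± 2391 FPKM and did not pass (adjusted p = 0.190 by limma), although voom on recovered reads called it lower (adjusted p = 5.21e-05). The call of Ins1 was lost without control replicate 2 and without a filter on low values (adjusted p up to 0.831). The ratio of control to Wtap-βKO means over these 20 genes ran from 0.601 for Adcyap1 to 25.0 for Trpm5, with a median of 2.06, and 6 of the 20 were at least 3-fold lower. The limits of 3-fold and 1.5-fold that divide the members already place the 6 strongly lowered ones above that median. They likewise place Prlr, Spock2 and Gjd2 below it. The summed level of the 20 was between 136025 and 156325 FPKM in the controls and between 82363 and 92911 in the libraries labelled Wtap-βKO, and most of it was RNA of Ins2, Ins1 and Iapp, the amylin gene.

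Some markers of other cells rose, and their part in the values of the 9 genes was not tested. Among all genes tested 8.77% were higher. The share was 50% for α-cell markers and also 50% for δ-, PP- and ε-cell markers. It was 63.6% for mesenchymal, 18.2% for endothelial, 15.4% for acinar, 10% for ductal and 9.09% for macrophage markers. The ductal and macrophage shares were thus near that of all genes tested. Of 12 α-cell markers tested 6 rose and 1, Peg3, fell, and their summed level was between 21889 and 26060 FPKM in the controls and between 34836 and 45751 in the libraries labelled Wtap-βKO. Gcg, the glucagon gene, was at 22504 ± 2122 and 36405 ± 5239 FPKM (adjusted p = 0.0890 by limma). Gcg was called higher in 4 of 14 alternatives, namely voom, scaling by total reads, scaling without the 50 highest genes, and omission of replicate 2 labelled Wtap-βKO (adjusted p from 0.000319 to 0.925 over all 14). Cltrn, described above as a partner of β cells and kidney, is on that list and is 1 of the 6 that rose. It was not on the list of other β-cell markers, so the higher count given for that list leaves it out. Of 8 markers of δ, PP and ε cells 4 rose, with sums of 15592 to 17474 and 18487 to 34671 FPKM, and the count was 2 without any single control or without replicate 3 labelled Wtap-βKO. Sst rose 1.68-fold and Hhex, a δ-cell factor, was at 8.52 ± 0.581 and 11.1 ± 1.76 FPKM (adjusted p = 0.0887 by limma). Hhex was called higher under both other scalings, by total reads and without the 50 highest genes, and without replicate 1 labelled Wtap-βKO (adjusted p down to 0.0207). The call of Sst was lost without any single control, without replicate 3 labelled Wtap-βKO and without a filter on low values (adjusted p up to 0.558).

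Of 11 mesenchymal markers 7 rose, with sums of 69.0 to 82.6 FPKM in the controls and 105.6 to 122.6 among the libraries labelled Wtap-βKO. The collagen genes Col1a1 and Col1a2 rose 1.85-fold and 1.82-fold, and the count was 4 without control replicate 1 or 2 and without replicate 1 or 3 labelled Wtap-βKO. Of 13 acinar markers 2 rose (sums of 159 to 275 and 264 to 369 FPKM), and omitting 1 library gave 8 for control replicate 3, 0 for control replicate 1 or 2, 3 for replicate 3 labelled Wtap-βKO and 1 for replicate 1 of that group. On all libraries voom called 8, and 8 had an unadjusted p under 0.05. Cpa1 was at 6.33 ± 1.29 and 9.15 ± 1.30 FPKM (adjusted p = 0.0592 by limma). Voom, scaling by total reads and omission of control replicate 3 each called Cpa1 higher (adjusted p down to 0.0272). Of 11 endothelial markers 2 rose (sums of 190 to 228 and 227 to 257 FPKM), a count that stood only with replicate 2 labelled Wtap-βKO as the omitted library and was 0 with any other one omitted. On all libraries voom called 2, and 5 had an unadjusted p under 0.05. Pecam1 and Cdh5 did not pass (adjusted p = 0.127 and 0.176 by limma). Scaling by total reads called Pecam1 higher (adjusted p = 0.0394), and Cdh5 was called higher with the replicate number as a block (adjusted p = 0.0491) and without replicate 2 labelled Wtap-βKO (adjusted p = 0.0460). Of 10 ductal markers 1 rose (sums of 318 to 346 and 320.0 to 392 FPKM), with Krt19 near 0 at 0.513 ± 0.365 and 0.726 ± 0.444 FPKM and Krt7 at 34.9 ± 2.31 and 36.9 ± 8.23. Of 11 macrophage markers 1 rose (sums of 116 to 130.0 and 136 to 153 FPKM), with Cd68 at 2.37 ± 0.247 and 2.28 ± 0.635 FPKM and Adgre1 at 1.72 ± 0.285 and 2.41 ± 0.391. No listed marker gene of these cell types was at 0 in every library.

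The genes whose pattern was most like that of the 9 were sought over the 6 libraries, among 7821 genes with a mean of at least 5 FPKM, by the Pearson correlation of log2(FPKM + 1) with the mean standardized profile of the members. The 5 closest were Insig1, a brake on sterol synthesis (r = 0.999), the gene model Gm44850 (0.999), the endocrine transcription factor Neurod1 (0.998), Mia2, which acts in export from the endoplasmic reticulum (0.998), and the islet factor Pax6 (0.998). All share the same 6 libraries and the step between the groups, which sets most of r, so the values are descriptions. Insig1 was at 52.4, 59.3 and 62.5 FPKM in the controls and at 24.5, 27.9 and 25.6 in the libraries labelled Wtap-βKO. Pax6 was at 32.4, 34.7 and 34.0 and at 25.2, 25.9 and 25.0, a much smaller step of the same shape.

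The members' transcripts were also searched for GGACT, the letters most often found at N6-methyladenosine sites, in the longest coding transcript of each gene (GENCODE M21). Over 12692 transcripts of tested genes the median was 1.05 matches per kilobase. Fam151a held 1.56, Prss53 1.41, Papss2 1.38 and Cyp4f39 1.15 per kilobase, above that median. Gjd2 held 1.04, Spock2 0.955, Tmem215 0.845 and Prlr 0.707 per kilobase, below it, and the 1306 bases of Ppp1r1a held 0 matches. The strongly lowered members thus lay on both sides of the median. A match does not show that a site is methylated, and no methylation was measured in these files.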

How the data were processed

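FPKM values per gene, with gene lengths in bases, were deposited for 6 islet libraries in a single table. The submitters' processing notes list CASAVA, featureCounts 1.5.0-p3, HISAT2 2.0.5 and DESeq2 1.20.0 and the build GRCm38 (mm10), without role or order, and the annotation was not given in the sources used here. FPKM times gene length gave whole reads, within 0.01 read, for 100% of values above 0, so reads were recovered. The library size behind the deposited values was 0.952 to 0.988 times the recovered total in the controls. In the libraries labelled Wtap-βKO it was 1.04 to 1.07 times. Relative to total recovered reads, the deposited values thus carry a scaling that differs by group and lowers the libraries labelled Wtap-βKO against the controls. By the median ratio to the geometric mean of all libraries, over genes above 0 in each, every library stood at 1.00741. The deposited values were thus already level between libraries on that measure.

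FPKM was used as deposited. Genes with a mean of at least 0.5 FPKM, 15927 in all, were tested two-sided with limma 3.58.1 in R 4.3.3 on log2(FPKM + 1) with a trended variance, and p-values were adjusted by Benjamini-Hochberg with a threshold of 0.05. Folds are ratios of mean FPKM, ± is the SD over 3 samples, and SE is moderated by limma. Per the labels, replicates are biological and independent, and no batch is named. The limma fit under its main setting was also run on simulated data with independent normal noise on the log2 scale. The simulation follows the model that limma assumes, so it cannot show how well that model holds for these data. The members and lists were chosen with earlier results of these data known.

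Named genes were the members, paralogs, overlapping genes, up to 4 genes per companion list (lowest adjusted p, mean of at least 1 FPKM), the first 2 of each marker list and the 5 most similar genes. Others were named as extremes, for their role or as small counts, after their values were seen. Some genes that this rule names are not reported here. Coordinates are those of the deposited table. Python 3.11.15 with pandas 2.3.3 and matplotlib 3.10.9 made summaries and figures. The closing section gives the effect of 14 alternatives in scaling, pseudocount, filter, model, replicate block and omitted libraries.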

Additional observations from a re-analysis of the deposited data

How the results depend on the processing

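Over the 14 alternatives the log2 differences of the members ranged from -4.18 to -2.74 for Cyp4f39, which moved with the pseudocount and by voom, and from -0.345 to -0.114 for Gjd2 and -0.594 to -0.251 for Prlr. Scaled to total recovered reads, 2336 genes were higher and 1094 lower, and 51 companion genes were higher. The median log2 fold change of all genes tested was then 0.0816, against -0.0054 as deposited. Gjd2 was then at -0.11 and Prlr at -0.37 in log2, against -0.23 and -0.48 as deposited. The deposited values were level between libraries by the median ratio described above, and not by total recovered reads. Why these scalings differed by group was not tested. Leaving out 1 library at a time gave 782 to 1380 higher genes, 1027 to 1853 lower genes and 20 to 30 higher and 16 to 28 lower companion genes, from fewer samples. Calls were followed for 64 genes: those the naming rule gives from the companion, marker and overlapping genes, with Jak2, Stat5a, Stat5b and Peg3 added after the data were seen. Of these 46 kept their side of the threshold under every alternative, and no call changed direction. The 5 most similar genes were followed by value only, and each stayed lower.

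Samples with the same replicate number had correlations of their deviations from the group means of 0.0293, 0.0377 and 0.0185, all under 0.1, so the numbers are not taken as pairs, although every sample correlated best with its own number. With the replicate block 1148 genes were higher and 1490 lower, and 33 companion genes were higher and 19 lower. Among the genes named in the text, that fit lost the calls of Cyp4v3 and Cyp4f17 and made calls of Cdh5 and Stat5a. Depth limits Cyp4f39 most, with 13 to 16 reads in each library labelled Wtap-βKO. P-values set the difference between the groups against the spread between 3 pooled samples a group, moderated across genes. The spread between single mice was not measured.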
